A study of Mus musculus with 6 samples.

Results

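The genes described here encode effectors that macrophages use against microbes: Acod1 and Nos2, which make small antimicrobial molecules, Lcn2, Slc11a1, Saa3 and Hp, which bind or carry metals, lipids, iron chelators or haemoglobin, and Camp, Mpeg1 and Lyz2, which attack microbial surfaces. The 9 genes were listed by name, and the 8 with a probe set in the value table were analysed, out of 25206 probe sets. Lyz2 was not analysed here. Expression was measured on 6 one-colour arrays of macrophages that had been grown in culture from mouse bone marrow. The 3 control samples were untreated, and the 3 treated samples were exposed for 16 hours to 0.3 micromole of JG-98, a compound that inhibits the Hsp70 family of protein-folding chaperones. The labels give no volume for that dose, no vehicle for the controls, and neither the strain, sex nor age of the mice. No bacterial or cytokine stimulus is named for either group. Over all probe sets JG-98 replicate 3 stood apart, correlating with the other arrays at 0.992 to 0.9935, where the highest value between other arrays was 0.996, so values without it are given below.

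Acod1 converts cis-aconitate, an intermediate of the citric acid cycle, into itaconate, a metabolite that inhibits succinate dehydrogenase and some bacterial enzymes. Nos2 makes nitric oxide from arginine. Both genes are scarcely transcribed in resting macrophages and are strongly induced by lipopolysaccharide and interferon-gamma, and Saa3 and Lcn2 are induced through NF-kB and C/EBP factors. Slc11a1 and Mpeg1, in contrast, are produced constantly by mature macrophages, while Camp and much of Hp and Lcn2 in marrow belong to developing neutrophils.

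Saa3, Acod1 and Lcn2 lay higher in all 3 JG-98 samples than in any control, by log2 differences of 1.06, 0.71 and 0.62, and Slc11a1 did so by 0.15. The groups overlapped for Nos2, Camp, Mpeg1 and Hp, with differences between -0.11 and 0.09. Of the 8 genes, 0 passed limma at an adjusted p under 0.05 over all probe sets, where 0.0397% of all probe sets did (0.0317% higher, 0.00793% lower). At an unadjusted p under 0.05 there were 4 of the 8, with 4 higher and 0 lower, where 8.32% of all probe sets passed (3.84% higher, 4.48% lower). The same 4 genes had groups that did not overlap, where 15.6% of all probe sets did so (7.12% with JG-98 higher, 8.44% with JG-98 lower).

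**Figure D1:**
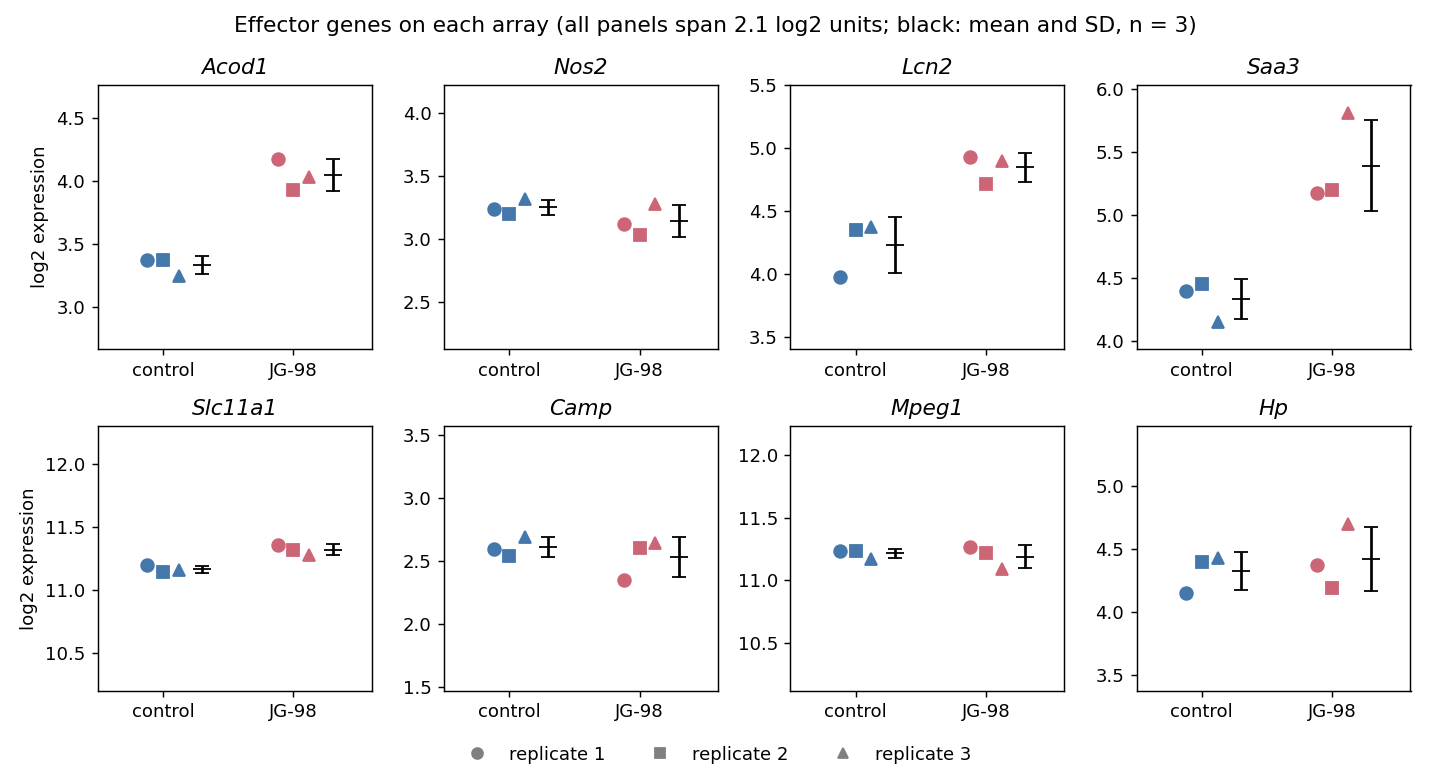
Log2 expression of the 8 effector genes on each array, controls in blue and JG-98 in red, with the mean and SD of each group (n = 3) in black; the panels have different positions on the scale but the same span. The JG-98 points of Acod1, Lcn2, Saa3 and Slc11a1 lie above all control points, and those of the other genes are mixed with them.

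The promoters of the 3 genes with the largest differences are shown so that the position of matches to known inflammatory and stress elements can be read in the sequence. They come from RefSeq tables of build GRCm38.p6, which held 6 of the 8 genes, and each run is the 250 bases before the transcript start, 5′ to 3′ on the gene's strand. Capitals mark matches to the motifs searched on both strands, which were NF-kB (GGNNNTTCC), C/EBP (TTGCNNAA), the STAT-binding GAS element (TTCNNNGAA), the interferon-response ISRE core (GAAANNGAA), AP-1 (TGANTCA) and the ATF4 CARE element (TGATGNAA).
Saa3, chr7:46715677-46715926, minus strand: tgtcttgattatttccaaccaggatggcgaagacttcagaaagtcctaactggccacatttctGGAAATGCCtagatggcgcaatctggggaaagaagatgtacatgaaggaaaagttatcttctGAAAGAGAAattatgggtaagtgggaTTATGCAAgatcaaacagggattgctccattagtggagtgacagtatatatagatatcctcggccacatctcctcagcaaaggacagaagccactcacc
Lcn2, chr2:32387740-32387989, minus strand: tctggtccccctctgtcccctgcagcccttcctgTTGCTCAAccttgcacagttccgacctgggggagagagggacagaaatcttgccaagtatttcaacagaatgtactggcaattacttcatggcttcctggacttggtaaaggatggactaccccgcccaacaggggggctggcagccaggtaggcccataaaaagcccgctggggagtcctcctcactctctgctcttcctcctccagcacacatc
Acod1, chr14:103046762-103047011, plus strand: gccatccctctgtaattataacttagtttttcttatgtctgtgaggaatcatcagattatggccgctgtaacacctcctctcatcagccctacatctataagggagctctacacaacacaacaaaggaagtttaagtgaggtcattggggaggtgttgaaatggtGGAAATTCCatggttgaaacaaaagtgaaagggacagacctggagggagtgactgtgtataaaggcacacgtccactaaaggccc

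The Acod1 promoter held 1 NF-kB match, GGAAATTCC, ending 77 bases before the start. The Saa3 promoter held 1 NF-kB match, GGAAATGCC, ending 179 bases before the start, 1 ISRE core match, GAAAGAGAA, ending 117 bases before it, and 1 C/EBP match, TTATGCAA, ending 92 bases before it. The Lcn2 promoter held 1 C/EBP match, TTGCTCAA, ending 209 bases before the start. Of the other promoters, that of Slc11a1 held 1 NF-kB match and those of Camp and Mpeg1 held none of these letters. Among 32851 RefSeq promoters of this length, 15.7% held the NF-kB motif, 9.56% the C/EBP motif and 7.13% the ISRE core. The shares were 7.02% for GAS, 6.75% for AP-1 and 3.45% for the CARE element. The NF-kB and ISRE patterns were each shortened by 1 letter after a first search, and a match describes these letters only.

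Acod1 read 3.37, 3.37 and 3.24 on the log2 scale in control replicates 1, 2 and 3, and 4.18, 3.92 and 4.03 in JG-98 replicates 1, 2 and 3. Each JG-98 value stood above the highest control by more than the spread within either group. The difference was 0.71 ± 0.088 (SE, n = 3 per group), a 1.64-fold higher level, with a 95% interval of 0.51 to 0.92. It had an unadjusted p of 1.1e-04 in limma, which gave an adjusted p of 0.126 over all probe sets. With an intensity trend in the variance prior, Acod1 passed (limma adjusted p = 0.0357, in a range of 0.0357 to 0.603 over 12 settings). Its SE was then larger, at 0.12, and its limma unadjusted p was higher, at 2.55e-04. That fit called 254 of all probe sets, against 10 in the main fit. Without JG-98 replicate 3 the Acod1 difference was 0.72.

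Nos2, the inducible nitric oxide synthase that classically accompanies Acod1 in activated macrophages, read 3.24, 3.20 and 3.32 in the controls and 3.12, 3.03 and 3.28 with JG-98. The groups overlapped, with 2 of the JG-98 samples under every control. Its difference was -0.11 ± 0.085 (SE, n = 3 per group), and its 95% interval of -0.31 to 0.096 ended below the one for Acod1. Without JG-98 replicate 3 the Nos2 difference was -0.17. Within arrays, Acod1 differed by 0.82 more than Nos2, and all 3 JG-98 samples lay above all controls in that measure. An exact two-sided permutation test over samples gave p = 0.1, the smallest that 3 against 3 samples allow. The pair was chosen after its values were seen, as were 3 other pairs given below, and the exact permutation p adjusted over the 4 pairs was 0.1 for each. Each pair set a gene whose groups did not overlap against one whose groups did. These p-values therefore follow largely from the choice, which the adjustment does not cover, and no conclusion is drawn from them.

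Saa3, an acute-phase apolipoprotein that macrophages themselves secrete, had the largest difference of the group. It read 4.40, 4.46 and 4.16 in the controls and 5.17, 5.20 and 5.81 with JG-98. JG-98 replicate 3 was the highest array, and replicates 1 and 2 lay close to each other and above every control. The difference was 1.06 ± 0.19 (SE, n = 3 per group), a 2.08-fold higher level, with a 95% interval of 0.61 to 1.51 (limma unadjusted p = 9.53e-04, adjusted p = 0.24). Without JG-98 replicate 3 it was 0.85, with an interval of 0.58 to 1.11. With an intensity trend, Saa3 passed (limma adjusted p = 0.0298, in a range of 0.0298 to 0.716 over 13 settings).

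For the hepatic serum amyloid A genes the groups overlapped at very low values. Saa1 and Saa2, which are mainly made by the liver and are near-identical to each other, had mean levels of 1.77 and 1.84 in the controls and 1.85 and 1.82 with JG-98. Their differences were 0.076 ± 0.21 and -0.021 ± 0.15 (SE, n = 3 per group). Hp encodes haptoglobin, an acute-phase protein that captures free haemoglobin and so keeps its iron from microbes. It read 4.15, 4.39 and 4.43 in the controls and 4.37, 4.19 and 4.69 with JG-98, so the groups overlapped. The Hp difference was 0.094 ± 0.15 (SE, n = 3 per group), with a 95% interval of -0.25 to 0.44, and it was -0.045 without JG-98 replicate 3. Saa3 differed by 0.96 more than Hp within arrays (exact two-sided permutation p = 0.1, pair chosen after its values were seen).

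Lcn2, or lipocalin 2, sequesters the siderophores with which bacteria collect iron. It read 3.97, 4.35 and 4.37 in the controls and 4.93, 4.71 and 4.90 with JG-98. The lowest JG-98 value lay above the highest control, and control replicate 1 was the lowest array by a wide margin. The difference was 0.62 ± 0.13 (SE, n = 3 per group), a 1.53-fold higher level, with a 95% interval of 0.31 to 0.92 (limma unadjusted p = 0.00222, adjusted p = 0.294). Without control replicate 1 it was 0.49, with an interval of 0.25 to 0.73, and without JG-98 replicate 3 it was 0.59.

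Slc11a1, or Nramp1, pumps divalent metal ions out of the phagosome and influences the resistance of inbred mice to several intracellular bacteria. It read 11.20, 11.14 and 11.16 in the controls and 11.36, 11.32 and 11.28 with JG-98. The groups did not overlap, but the distance between them was small. The difference was 0.15 ± 0.063 (SE, n = 3 per group), a 1.11-fold higher level (limma unadjusted p = 0.0471, adjusted p = 0.589). After median centring of the arrays it was 0.13, with a 95% interval of -0.095 to 0.36, and without JG-98 replicate 3 it was 0.18.

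**Figure D2:**
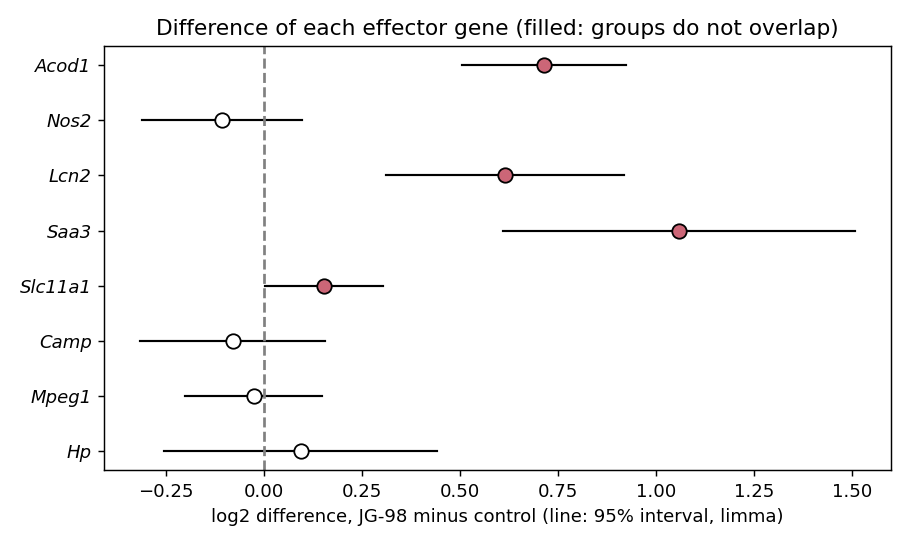
Log2 difference (JG-98 minus control) of each effector gene, with its 95% interval from limma; filled points mark genes whose groups do not overlap. The intervals of Acod1, Lcn2, Saa3 and Slc11a1 lie above 0, that of Slc11a1 from 0.0027, and the other 4 include 0.

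Camp encodes the cathelicidin precursor, whose released peptide permeabilises bacterial membranes. It read 2.60, 2.54 and 2.69 in the controls and 2.35, 2.60 and 2.64 with JG-98. The values were low on every array and the groups overlapped, at a difference of -0.080 ± 0.099 (SE, n = 3 per group). Developing neutrophils store Lcn2 in granules together with Camp. Within arrays Lcn2 differed by 0.69 more than Camp (exact two-sided permutation p = 0.1, pair chosen after its values were seen). Mpeg1 encodes perforin-2, a pore-forming protein of the phagosome. It read 11.24, 11.24 and 11.17 in the controls and 11.26, 11.22 and 11.09 with JG-98, with a difference of -0.025 ± 0.073. JG-98 replicates 1 and 3 lay on either side of the controls, and the 95% interval was -0.20 to 0.15. Without JG-98 replicate 3 the differences were 0.026 for Mpeg1 and -0.13 for Camp. Slc11a1 differed by 0.18 more than Mpeg1 within arrays (exact two-sided permutation p = 0.1, pair chosen after its values were seen).

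Signal was high for 2 of the 8 genes and low for the others. Slc11a1 and Mpeg1 read above 11 on every array, as genes of resident macrophage function. Acod1, Nos2, Lcn2, Saa3, Camp and Hp stayed within the range of 17 measured genes of other organs. Those genes, such as the albumin gene Alb and the cardiac myosin gene Myh6, read between 1.31 and 5.91 with a median of 3.29. Alb itself read 2.45 to 3.07 and Myh6 3.47 to 3.83. The top of the range came from Prm2 and Mbp, and the highest value of the rest was 4.54, of Nppa. With JG-98, Saa3 (5.17 to 5.81) and Lcn2 (4.71 to 4.93) lay above 4.54 on every array, as did Hp in replicate 3 (4.69). No detection call was used. For the 6 effector genes in that range, a level near background therefore cannot be told from a low transcript level. Their log2 differences may understate the change. The mean of the other-organ genes was 3.37 to 3.48 in the controls and 3.33 to 3.69 with JG-98, highest in JG-98 replicate 3, and its part in the differences of the 6 genes was not tested.

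Macrophage identity was plain in all 6 arrays. Of 12 macrophage markers, 11 were measured, between 6.24 and 12.13 on the log2 scale, with Csf1r, the receptor of the growth factor that sustains these cells, at 11.24 in the controls and 11.15 with JG-98. Their summed signal on the log2 scale was 14.04 to 14.06 in the controls and 13.93 to 14.02 with JG-98. Of the 11, 3 were lower at an unadjusted p under 0.05 (C1qa, Mertk and Mrc1) and 0 higher, and 0 passed limma at an adjusted p under 0.05. Over all probe sets 3.84% were higher and 4.48% lower at the unadjusted threshold. In the fit limited to probe sets at a mean of 6 or more, 22.5% passed it in either direction. In 6 of the 11 all JG-98 values lay below all control values, and in 1 above them. Over all probe sets the shares were 8.44% below and 7.12% above. Any part of the lower macrophage markers in the results on the effector genes was not tested. Because Lcn2, Camp and Hp are also neutrophil genes, 18 other neutrophil markers were read beside them. Their mean was 3.47 to 3.59 in the controls and 3.49 to 3.58 with JG-98, and their summed signal on the log2 scale was 8.72 to 8.76 and 8.46 to 8.55. Without Mmp8, a gene that carried much of that sum, it was 8.20 to 8.22 and 8.14 to 8.20 over 17 markers, in an alternative added after seeing the data. The median difference of the 18 markers was 0.013. The defining markers S100a8, S100a9 and Ly6g had control means of 2.44, 2.58 and 2.33 and JG-98 means of 2.55, 2.74 and 2.44. At an unadjusted p under 0.05 there were 0 neutrophil markers higher and 1 lower, the collagenase gene Mmp8, at -0.77 ± 0.082. In such bulk samples, fewer cells of a type and less RNA per cell cannot be told apart. Lyz1, the Paneth cell lysozyme, is a near-identical copy of Lyz2 and its probes may read both, so the 2 genes cannot be told apart there. It had means of 5.57 in the controls and 5.82 with JG-98, a difference of 0.25 ± 0.15.

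For the itaconate route, the other enzymes and carriers around Acod1 differed by small amounts. Of 19 measured genes of the list, 0 passed limma at an adjusted p under 0.05, and 3 were higher and 1 lower at an unadjusted p under 0.05. Among all probe sets 3.84% were higher and 4.48% lower at the latter threshold. In the fit limited to probe sets at a mean of 6 or more, which kept 14 of the 19 genes, 22.5% passed it in either direction. Clybl, Idh3a and Slc25a10, named below, were above that level. The median difference was 0.051, against 8e-04 for all probe sets. Without control replicate 2 or JG-98 replicate 2 the count was 1 higher and 0 lower, that is without Clybl, Idh3a and Slc25a10. In those fits 6.25% and 8.12% of all probe sets passed the unadjusted threshold. Beside Acod1, the higher genes were Clybl, a mitochondrial enzyme that degrades a breakdown product of itaconate, at 0.20 ± 0.070, and Idh3a, a subunit of isocitrate dehydrogenase, at 0.18 ± 0.067. The lower gene was Slc25a10, the dicarboxylate carrier of the inner mitochondrial membrane, at -0.15 ± 0.060. Citrate synthase, Cs, which feeds the cycle from which itaconate is drawn, differed by 0.065 ± 0.062, and the succinate dehydrogenase subunit gene Sdha by -0.067 ± 0.061. These 2 genes were chosen after their values were seen.

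For nitric oxide and arginine, 20 of 20 listed genes were measured. At an adjusted p under 0.05 limma called 0, and at an unadjusted p under 0.05 there was 1 higher and 1 lower. Among all probe sets 3.84% were higher and 4.48% lower at the latter threshold. In the fit limited to probe sets at a mean of 6 or more, which kept 10 of the 20 genes, 22.5% passed it in either direction. The higher gene was Slc7a1, the main arginine importer of many cells. It read 6.69, 6.71 and 6.84 in the controls and 7.32, 7.15 and 7.34 with JG-98. Its groups were clearly apart, at a difference of 0.52 ± 0.083 (SE, n = 3 per group, limma unadjusted p = 5.2e-04, adjusted p = 0.207). Nosip, a ubiquitin ligase named for its binding to nitric oxide synthase, was the lower one at -0.27 ± 0.060. Its JG-98 values were all 6.60 or 6.61, with control values from 6.85 to 6.92. Ass1, an enzyme that rebuilds arginine from citrulline, had means of 4.39 ± 0.31 in the controls and 4.90 ± 0.58 with JG-98 (SD, n = 3), and the groups overlapped. Arg1, which competes with Nos2 for arginine, differed by 0.0078 ± 0.12. Ass1 and Arg1 were chosen after their values were seen.

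The phagocyte oxidase, which makes superoxide in the phagosome, had 8 measured subunits and regulators of 9 listed. In limma 0 passed at an adjusted p under 0.05 and 0 at an unadjusted p under 0.05. The differences ran from -0.12 to 0.033 with a median of -0.053. In 5 of the 8 genes all JG-98 values lay below all control values, where 8.44% of all probe sets did so. Among them were Cybb, the catalytic subunit, at -0.059 ± 0.066 and Rac1, a GTPase that activates the complex, at -0.12 ± 0.060. Some of these gaps were minute. The highest JG-98 value and the lowest control value were 11.0967 and 11.0982 for Cybb, and 7.6526 and 7.6527 for Cybc1. The 8.44% covers probe sets of every level, and the share among those of high signal alone was not computed.

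Among the lists, which differ in size, metal withholding gave the largest number of genes at the unadjusted threshold. There were 6 higher and 1 lower among 22 measured, and 0 past an adjusted p under 0.05 in limma. Over all probe sets 3.84% were higher and 4.48% lower at the unadjusted threshold. Without the effector genes the count was 4 higher and 1 lower of 19. The median difference of the 22 genes was 0.11. The count was 3 higher and 1 lower without control replicate 2, and 7 higher and 2 lower without JG-98 replicate 3. Over all probe sets 6.25% and 11.3% passed the unadjusted threshold in those fits, against 8.32% with all arrays. In the fit limited to probe sets at a mean of 6 or more, which kept 12 of the 22 genes, 22.5% passed it. With all arrays the higher genes were Lcn2, Slc11a1, Tfrc, Slc11a2, Hmox1 and Hamp, and the lower one Slc40a1. Tfrc, the transferrin receptor through which cells take up iron, had means of 7.91 ± 0.11 in the controls and 8.23 ± 0.10 with JG-98 (SD, n = 3), a difference of 0.32. Slc11a2, which carries iron from endosomes into the cytosol, differed by 0.24 ± 0.067, and Hmox1, which frees iron from haem, by 0.24 ± 0.075. Slc40a1, or ferroportin, the iron exporter, read 10.44, 10.47 and 10.44 in the controls and 10.27, 10.22 and 10.14 with JG-98. Its difference was -0.24 ± 0.066, with all JG-98 values below the controls (limma unadjusted p = 0.00925, adjusted p = 0.415). Hamp, the hepcidin gene, had means of 1.10 and 1.53, among the lowest values described here, and its groups overlapped. Hmox1 and Hamp were outside the rule for naming and were added to complete the count.

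Among 23 measured antimicrobial proteins, 2 were higher and 1 lower at an unadjusted p under 0.05, and 0 passed limma at an adjusted p under 0.05. Their median difference was 0.066, and -0.0031 without JG-98 replicate 3. For this list and the next, the shares over all probe sets at the unadjusted threshold were 3.84% higher and 4.48% lower. Beside Lcn2 the higher gene was Wfdc21, a small secreted protein of the whey acidic protein family, with means of 3.04 ± 0.036 in the controls and 3.45 ± 0.20 with JG-98 (SD, n = 3). The lower gene was Ang, the ribonuclease angiogenin, at -0.61 ± 0.24 (SE), with overlapping groups. Of 17 acute phase genes, 4 were higher and 0 lower at the unadjusted threshold, with a median of 0.048, and of -0.022 without JG-98 replicate 3. They were Saa3, Apcs, the serum amyloid P gene, at 0.25 ± 0.074, Cp, the copper-carrying ferroxidase ceruloplasmin, at 0.33 ± 0.10, and Il1rn, the secreted antagonist of the interleukin-1 receptor, at 0.20 ± 0.064. None of these 4 passed limma at an adjusted p under 0.05.

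The receptors and transcription factors through which Acod1, Nos2, Lcn2 and Saa3 are usually induced were measured for 24 of 26 listed genes. At an unadjusted p under 0.05, 1 was higher and 3 lower, 0 passed limma at an adjusted p under 0.05, and the median difference was -0.075. At the unadjusted threshold 3.84% of all probe sets were higher and 4.48% lower. In the fit limited to probe sets at a mean of 6 or more, which kept 15 of the 24 genes, 22.5% passed it in either direction. The higher gene was Tnf, an inflammatory cytokine, with means of 7.96 ± 0.037 in the controls and 8.22 ± 0.051 with JG-98 (SD, n = 3). The 3 JG-98 values lay above the controls. The difference of Tnf was 0.26 ± 0.065 (SE, n = 3 per group, limma unadjusted p = 0.00571, adjusted p = 0.38). The lower genes were Il6ra, the interleukin-6 receptor, at -0.35 ± 0.064, Il1r1, the interleukin-1 receptor, at -0.21 ± 0.065, and Irf1, an interferon-induced factor that acts on Nos2, at -0.21 ± 0.066. Cebpb, whose product binds many acute-phase promoters, differed by 0.074 ± 0.11, and Nfkbiz, a nuclear NF-kB cofactor for Lcn2, by 0.020 ± 0.086. Il1b and Il6, cytokine genes typical of a stimulated macrophage, were low in both groups, with means of 2.71 and 1.41 in the controls and 2.60 and 1.46 with JG-98. The last 4 genes were chosen after their values were seen.

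**Figure D3:**
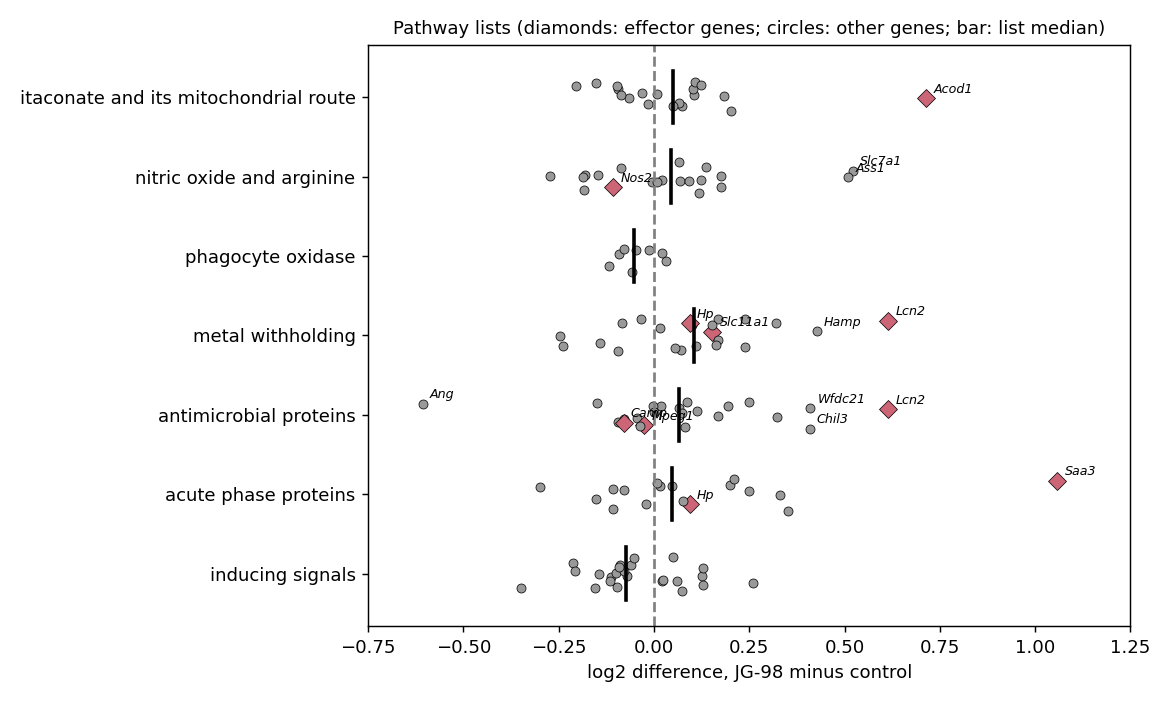
Log2 difference (JG-98 minus control) of every measured gene in 7 lists; diamonds are effector genes, circles the other genes, and bars list medians. Saa3, Acod1 and Lcn2 lie farthest to the right of their lists, and list medians run from -0.075 to 0.11.

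Profiles over the 6 arrays were compared for the 3 effector genes whose SD over all arrays was at least 0.2, by the root mean square difference of log2 values centred on each gene's own mean. For Acod1 the nearest of the genes with a symbol was Nupr1, a stress-induced chromatin protein, at 0.075, with Gadd45a, a growth-arrest gene, at 0.10 and Cav1, a coat protein of caveolae, at 0.10. Nupr1 read 6.95, 7.01 and 6.99 in the controls and 7.81, 7.73 and 7.72 with JG-98. For Lcn2 the nearest were Erdr1 at 0.10, Slc7a1 at 0.12 and A530020G20Rik at 0.12, and Erdr1 shared the low value in control replicate 1. For Saa3 the nearest were the olfactory receptor gene Olfr1324 at 0.19, Tarm1, an activating receptor of myeloid cells, at 0.20 and Sh2d6 at 0.22. Saa3, Olfr1324, Tarm1 and Sh2d6 were each highest in JG-98 replicate 3, a likeness to Saa3 by which the other 3 were picked. Olfr1324 read only 2.05 to 3.38. These likenesses describe 6 arrays and were not tested.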

How the data were processed

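The deposited values are log2 expression, 1 value per probe set and array. The submitters' processing notes list RMA, affy and R 2.15.1 with no roles, and the sources used here name no genome build. RMA generally normalizes arrays to each other and compresses differences of dim probe sets. Probe sets are named by Entrez gene number, 1 per gene, and symbols were updated through a RefSeq table (23185 matched).

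Groups followed the labels. Differences (JG-98 minus control) were tested with limma 3.58.1 (R 4.3.3; two-sided moderated test from lmFit and eBayes), with Benjamini-Hochberg adjustment over all 25206 probe sets and a threshold of 0.05. The labels do not say whether replicates are separate mice or cultures; a p-value therefore reflects the spread between these samples alone, which may be technical. Depth does not apply to arrays: their number limits the precision. On simulated data with 200 changed probe sets the fit recovered 20.3% of changes of 0.5, 79.7% of 1 and 96.6% of 2 (log2). The simulated variances were drawn from 1 prior whatever the signal level, so the shares for dim genes may differ.

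The genes and lists were chosen with earlier results of these data known. Named were the effector genes, the 4 smallest p-values of each list, markers, close relatives and the 3 nearest profiles. Other settings were median centring, quantile normalization, 2 level filters (array-wide median, and 6), an intensity trend, a robust prior, array weights (statmod 1.5.0), a replicate block and leaving out each array. Averaging over probe sets was not run, since no gene had several.

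Array medians were 4.08 to 4.24.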

Additional observations from a re-analysis of the deposited data

How the results depend on the processing

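The signs of Acod1, Saa3, Lcn2, Slc11a1 and Nos2 held in every setting that kept the gene, with ranges of 0.65 to 0.78 for Acod1, 0.85 to 1.17 for Saa3, 0.49 to 0.69 for Lcn2, 0.13 to 0.18 for Slc11a1 and -0.17 to -0.051 for Nos2. The others changed sign, each at a small size. Camp ran from -0.13 to 0.012 when 1 array was left out, Hp from -0.045 to 0.21 and Mpeg1 from -0.062 to 0.026. With array weights Camp was -0.17 and Mpeg1 was 0.023. The cause was not tested.

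The number of effector genes past an adjusted p of 0.05 in limma was 0 in all settings but 1, the intensity trend, which called 2 (Acod1 and Saa3). The count at an unadjusted p under 0.05 was 3 or 4 with all 8 genes, and 3 of 5 above the median level. It was 1 of 2 at a level of 6 or more, where the filter itself removed Acod1, Saa3 and Lcn2. The share of all probe sets at that threshold was 5.9% to 13.5% in the settings with all 8 genes. It was 15.5% above the median level and 22.5% at a level of 6 or more. Slc11a1 had an unadjusted p under 0.05 in 7 of 14 settings. Over all probe sets the number called was 90 above the median level, 385 at a level of 6 or more, 254 with the trend, 25 with array weights and 0 to 5 without 1 array, against 10. At an unadjusted p under 0.05 there were 2097, and 3406 with array weights.

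With the replicate block, limma called 0 probe sets, with 1855 at an unadjusted p under 0.05, and 3 effector genes at that threshold. Samples of 1 number deviated from their group means with correlations of 0.095, -0.126 and 0.104, so the numbers were not taken to pair the samples. In list counts at that threshold, an alternative added after seeing the data left out each array. Without 1 array, the list of inducing signals had 1 or 2 higher and 2 to 5 lower genes, with 5 lower without JG-98 replicate 3. Acute phase genes had 3 to 5 higher and 0 to 2 lower. The share of all probe sets at that threshold was 6.25% to 11.3% without 1 array, highest without JG-98 replicate 3. The median of the nitric oxide list was 0.043, and -0.012 without JG-98 replicate 3. Arrays give no count of molecules, and low signal limits 6 of the 8 genes.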
